A study of Mus musculus with 3 samples.

Results

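The platelet-derived growth factor (PDGF) family of the mouse comprises 4 ligand genes, Pdgfa, Pdgfb, Pdgfc and Pdgfd, and 2 receptor genes, Pdgfra and Pdgfrb. Their transcripts were measured in the adult renal corpuscle, where the nephron filters blood through the glomerular capillary tuft inside its capsule. Each gene was represented by the probe set whose annotation names that symbol alone, and each of the 6 had 1 such probe set and 0 that also name another gene. The 6 genes stand among 19938 genes that could be named in this way on an Affymetrix mouse gene array. The samples were 3 preparations of 1 group, with no second condition. The mice were males of the outbred CD-1 strain, wild-type per the labels and aged 7 to 9 weeks. Each preparation pooled about 2 kidneys, which were minced, kept at 37 °C for 15 minutes with 0.5% collagenase A, and sieved on filters of 100, 70 and 40 µm. RNA was amplified in 1 round before labelling. No cells were sorted, so podocytes, endothelium, mesangium, capsule and stray pieces of tubule all contributed to each signal, and a low signal from few cells cannot be told apart from little RNA per cell.

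PDGF ligands are secreted dimers that bring receptor chains together, which sets off the tyrosine kinase inside each chain. The alpha receptor binds the A, B and C chains, whereas the beta receptor binds chiefly B and D. The A and B chains are secreted in active form after cleavage inside the cell. The C and D chains carry an additional CUB domain that is removed outside the cell before they can bind. In the developing mouse glomerulus, PDGF-B from capillary endothelium acts on mesangial precursors that carry the beta receptor, and mice without either gene form glomeruli that lack mesangial cells. The alpha receptor is best known in kidney as a marker of interstitial fibroblasts and stromal cells.

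To give the regulatory context of the CUB domain ligands, the sequence just before the annotated start of Pdgfc and of Pdgfd is shown, from RefSeq on GRCm38.p6. Promoter windows were matched for 4 of the 6 members. Only those of Pdgfc and Pdgfd, the CUB domain ligands, were taken. Each is printed up to the base before the first annotated base of the gene. Both lie on the plus strand, 5′ to 3′, with capitals marking any match to the motifs searched on both strands. These were the TATA box core, spelled TATAAA, the motif CCAAT, and the GC box, which reads GGGCGG. None overlaps another.
Pdgfc, chr3:81036166-81036415: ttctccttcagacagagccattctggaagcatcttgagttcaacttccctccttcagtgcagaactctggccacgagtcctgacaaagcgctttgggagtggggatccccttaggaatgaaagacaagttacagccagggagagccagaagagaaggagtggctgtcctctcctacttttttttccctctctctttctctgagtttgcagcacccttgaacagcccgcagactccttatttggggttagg
Pdgfd, chr9:6168236-6168362: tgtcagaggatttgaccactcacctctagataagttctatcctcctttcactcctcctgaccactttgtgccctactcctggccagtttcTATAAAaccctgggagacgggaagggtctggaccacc
The Pdgfd window, of 127 bases, holds 1 TATA box core, whose first base lies 37 bases before the gene's first annotated base. Among 32851 promoter windows, 6.32% hold that motif in their first 127 bases. Those bases need not lie at the same distance from the start of each gene, so the share is no base rate for this position. The Pdgfc window, of 250 bases, holds none of the motifs, where 12.4% of windows of that length hold the TATA box core, 33.8% the CCAAT motif and 32.7% the GC box. The array signals do not bear on these motifs, which are given as a description.

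Signals were close between the 3 arrays, with Pearson's r across genes between 0.9975 and 0.9978, and genes are not independent replicates. Many genes had an identical value, in all decimals, on more than 1 array. This held on all 3 arrays for 54.2% of genes and on 2 of them for 27.5%. An SD of 0 is therefore not an error of 0. Background was set on each array at the 95th percentile of the signals of 1210 olfactory or vomeronasal receptor probe sets, genes that kidney is not known to use widely, and lay at 6.90, 6.96 and 6.92 log2 on replicates 1, 2 and 3. Detection means here that the log2 signal exceeded this level in a one-sided limma test with a Benjamini-Hochberg adjusted p under 0.05. Markers of the labelled structure were detected, 7 of 7 podocyte, 9 of 9 endothelial and 10 of 10 mesangial and pericyte genes, against 0 of 4 neuronal genes.

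Each of the 6 PDGF genes was detected, where 58.9% of all genes were. Without the model, 6 of 6 lay above background on every array, as did 59.1% of all genes. Signals over 150 on the linear scale on all 3 arrays were also found for 6 of 6 (51.3% of all genes). Over 500 were 4, namely Pdgfc, Pdgfd, Pdgfra and Pdgfrb (17.2% of all genes), and over 1000 was Pdgfrb alone (7.59%). Signals of different probe sets depend on the affinity of each and do not rank the transcripts, so levels are given against background and not against each other. Adjusted p-values of single genes are not printed, because the model drew each standard error from the level of the gene and not from its own spread, and ties make such values too small.

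**Figure D1:**
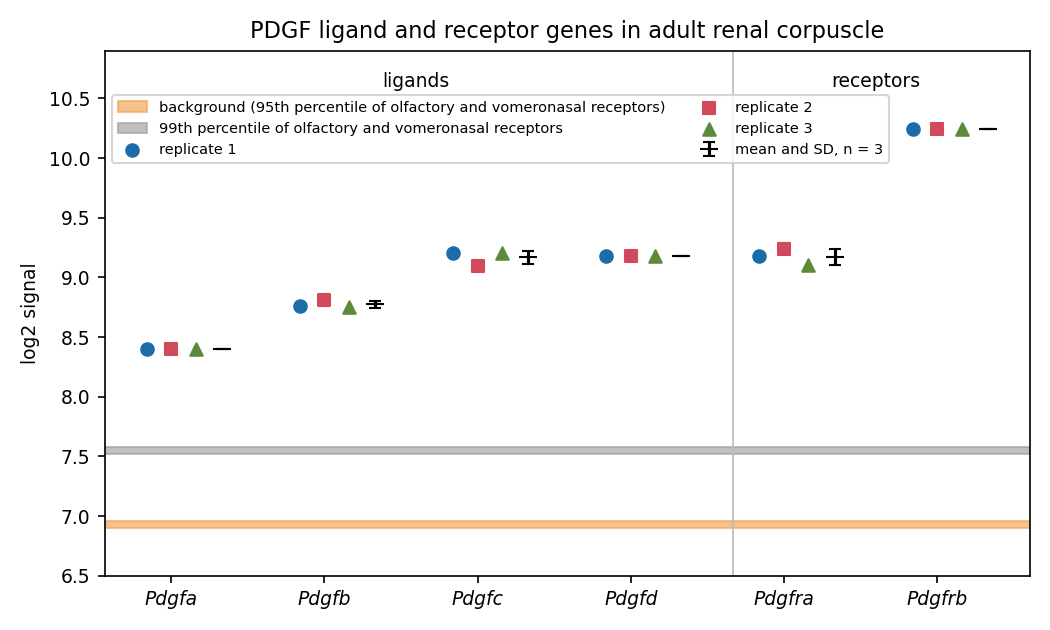
log2 signal (vertical axis) of the 6 PDGF genes on each of the 3 arrays; black marks show mean and SD (n = 3), the orange band runs over the 3 background levels, 6.90 to 6.96, and the grey band the 99th percentile of olfactory and vomeronasal receptors, 7.52 to 7.58. Every point lies above both bands, and for Pdgfa, Pdgfd and Pdgfrb the 3 arrays hold 1 value.

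Among the ligands, Pdgfa, which encodes the A chain and acts through the alpha receptor, had a signal of 8.40 log2 on each of the 3 arrays. This is 1.48 above background on average, with 1.50, 1.45 and 1.49 on replicates 1, 2 and 3, and corresponds to a linear signal of 339. Of the 1210 receptor probe sets that set the background, 5 had a higher mean signal than Pdgfa.

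Pdgfb encodes the B chain, the ligand of both receptors that endothelium supplies to the mesangium. Its signals were 8.76, 8.81 and 8.75 log2 on replicates 1, 2 and 3, with a mean of 8.77 ± 0.03 (SD, n = 3). The arrays lay within 0.056 log2 of each other, replicate 2 being the highest. The mean was 1.85 above background, a linear signal of 438, and 2 of the receptor probe sets lay higher.

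Pdgfc encodes a CUB domain ligand of the alpha receptor. It gave 9.20, 9.10 and 9.20 log2 on replicates 1, 2 and 3, and its mean was 9.17 ± 0.06 (SD, n = 3). Replicate 2 was the lowest, by 0.10 log2, and the other arrays held 1 value. Its mean stood 2.24 above background, a linear signal of 575.

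Pdgfd, the CUB domain ligand of the beta receptor, held 9.18 log2 on every array. Its level was 2.26 above background, with 2.28, 2.22 and 2.26 on replicates 1, 2 and 3. Because its signal was the same throughout, those differences are those of the background alone. The linear signal was 580, and for Pdgfd as for Pdgfc 1 receptor probe set lay higher.

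The receptor genes were also both detected. Pdgfra, which encodes the alpha receptor, had signals of 9.18, 9.24 and 9.10 log2 on replicates 1, 2 and 3, a mean of 9.17 ± 0.07 (SD, n = 3). Replicate 3 was the lowest and replicate 2 the highest, 0.14 log2 apart, which is the widest range among the 6 genes. The mean was 2.25 above background, a linear signal of 578, with 1 receptor probe set above it. Pdgfrb, the beta receptor of mesangial cells and pericytes, held 10.24 log2 on each array. It lay 3.32 above background, a linear signal of 1213, and 0 receptor probe sets were higher.

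How far the preparations differed in these genes was examined next. The ties left Pdgfb and Pdgfra with 3 different signals, Pdgfc with 2 and the other 3 with 1. One value on all arrays was thus held by 3 of 6 members, against 54.2% of all genes. The median SD of the 11734 detected genes was 0.0095 log2, and 44.0% of them held the same signal on all 3 arrays. For the 3012 detected genes whose 3 signals all differ it was 0.094. The SD of Pdgfb, 0.031, exceeded that of 9.53% of those genes, and the SD of Pdgfra, 0.068, exceeded that of 33.4%. Among all detected genes, ties included, the share with a smaller SD was 61.2% for Pdgfb, 72.8% for Pdgfc and 76% for Pdgfra. It was 0% for Pdgfa, Pdgfd and Pdgfrb, whose SD was 0. Pdgfb deviated from its 3-array mean by -0.015, 0.036 and -0.021 log2 on replicates 1, 2 and 3. Pdgfra deviated by 0.005, 0.065 and -0.070. Both were highest on replicate 2, whereas Pdgfc was lowest there, by -0.067 from its mean. With 3 arrays and 1 group these deviations carry no test.

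The genes whose deviations were most like those of a PDGF gene were sought among 3036 others with 3 different signals and a mean above background, by the root mean square difference over the 3 arrays. For Pdgfb they were Atg101, which encodes a protein of the autophagy initiation complex (0.0025 log2), Nmi (0.0042) and Slbp, the histone mRNA binding protein gene (0.0050). For Pdgfra they were Adamts9, a metalloprotease gene (0.0024), Babam1 (0.0026) and Blvra, which encodes biliverdin reductase (0.0039). A difference under 0.01 was reached by 15 genes for Pdgfb and by 17 for Pdgfra, so the genes named are not alone in such likeness. With 3 arrays the likeness carries no test. The members with ties were given no such genes.

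The marker genes of the cells that could supply these transcripts were set beside them. Of the mesangial and pericyte markers, detected in 10 of 10 cases, Ptn was at 12.63 ± 0.02 log2 and the integrin gene Itga8 at 11.73. The SDs of the 10 genes ran from 0 to 0.29, and their median deviation from the 3-array mean reached at most 0.016 log2 on any array. Of the endothelial markers, detected in 9 of 9 cases, Emcn was at 12.86 ± 0.01 and the VEGF receptor gene Kdr at 11.72 ± 0.02. The SDs of the 9 genes ran from 0 to 0.25, with median deviations between -0.015 and 0.011 on the 3 arrays. Of the podocyte markers, detected in 7 of 7 cases, Cdkn1c was at 12.44 ± 0.10 and Podxl at 12.33. Whether these cell types set the PDGF signals was not tested.

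**Figure D2:**
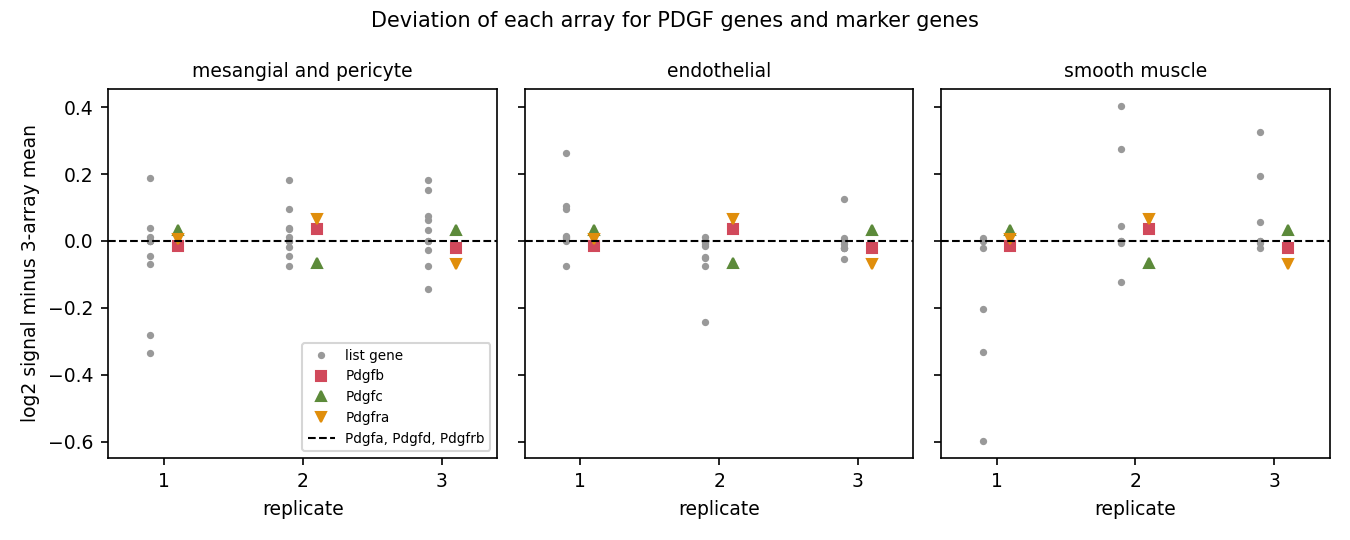
Deviation of the log2 signal from the 3-array mean (vertical axis) on each replicate (horizontal axis) for Pdgfb, Pdgfc and Pdgfra (coloured symbols) and for each marker gene (grey points) of 3 cell type lists; the dashed line is 0, where Pdgfa, Pdgfd and Pdgfrb lie. The PDGF genes lie between -0.070 and 0.065, and the widest grey points are those of the smooth muscle gene Acta2, with an SD of 0.53.

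Markers of other cells were detected in shares both above and below the 58.9% of all genes, and shares near that value are no result about a cell type. Of 7 smooth muscle markers 5 were detected, with Myl9 at 11.15 ± 0.29 log2 and Acta2 at 8.59 ± 0.53, while Actg2 and Cnn1 were not, at 6.16 and 6.44. Of 6 interstitial fibroblast markers 3 were detected, all collagen genes, Col3a1 at 7.37, Col1a1 at 7.90 and Col1a2 at 8.22. The proteoglycan genes Lum and Dcn were at 4.28 and 6.07, and Dpt at 4.75, all below background. The part of fibroblasts in the Pdgfra signal was not tested. Of 5 platelet and megakaryocyte markers 4 were detected, with Ppbp at 8.62 ± 0.05 and Treml1 at 7.75, and Gp9 was not, at 6.90. Of 7 macrophage markers 2 were detected, Lyz2 at 8.83 ± 0.46 and Cd68 at 7.73, whereas Adgre1 and Itgam were at 5.84 and 6.03. Of 5 parietal epithelial markers 4 were detected, led by Cd24a at 12.98 ± 0.05 and Ncam1 at 7.67 ± 0.08, and Krt18 was not, at 6.66. Tubule genes were found as well, 6 of 7 for the proximal tubule, with Kap at 10.61 ± 0.16, Aqp1 at 8.87 ± 0.13 and Cubn undetected at 6.54. For the loop, distal tubule and collecting duct they were 4 of 6, with Calb1 at 9.39 ± 0.22, Umod at 9.24 ± 0.51 and Scnn1g and Slc12a1 undetected at 5.97 and 6.83.

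The other genes of the pathway were then taken by role, and the related class III receptors and their ligands were counted with them. Of 73 genes listed outside the family, 66 were analysed and 57 of them (86.4%) were detected, where 58.9% of all genes were. Many act in most cell types, so the share does not single out PDGF signalling.

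**Figure D3:**
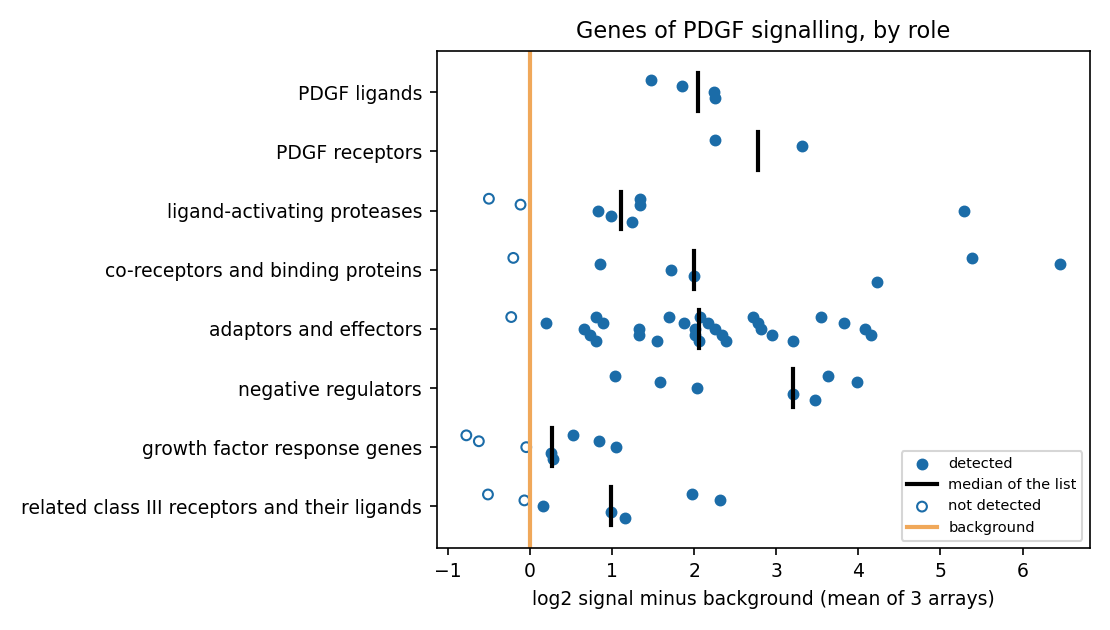
log2 signal minus background, mean of 3 arrays (horizontal axis), of each gene in 8 groups (rows). The groups are those of PDGF signalling and the related class III receptors with their ligands. Detected genes are filled and the others open, with group medians as black bars and background as the orange line. All 6 PDGF genes are filled, and the growth factor response genes have their median nearest to background, at 0.27.

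Proteases that activate the ligands were detected in 6 of 8 cases, with a median of 1.12 above background. Plat, the plasminogen activator that removes the CUB domain of PDGF-C, was at 12.16, 12.29 and 12.19 log2 on replicates 1, 2 and 3. Its mean, 12.22 ± 0.07 (n = 3), lay 5.29 above background. Plau, the other plasminogen activator, which cleaves PDGF-D, was at 8.17 ± 0.005. St14, the matriptase gene, whose product also cleaves PDGF-D, held 6.81 on every array and was not detected, nor was Plg, at 6.43, the gene of plasminogen, whose active form plasmin can cleave both CUB domain ligands. The proprotein convertases, which trim A and B chains inside the cell, were all detected, with Furin at 8.26, Pcsk5 at 8.27 ± 0.06, Pcsk6 at 7.91 and Pcsk7 at 7.76.

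Co-receptors and binding proteins were detected in 6 of 7 cases. Sparc, a matrix glycoprotein that binds PDGF-B and limits its action, was at 13.38 ± 0.03 log2 (n = 3). Nrp1, a co-receptor best known for VEGF and semaphorins, held 12.31 on every array. The scaffold gene Slc9a3r2, whose product binds the tail of PDGF receptors as does that of Slc9a3r1, was at 11.15 ± 0.08, and Slc9a3r1 was at 8.92 ± 0.09. Lrp1, an endocytic receptor that the beta receptor phosphorylates, was at 8.65, and the pericyte proteoglycan gene Cspg4 at 7.78. Itgb3 was not detected, at 6.72.

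Adaptors and effectors that dock on or act after the receptors were detected in 28 of 29 cases. Its members of highest signal, an order that does not rank transcripts, were the small GTPase gene Nras at 11.08 ± 0.005 log2 (n = 3), Pik3r1, a regulatory subunit of PI 3-kinase, at 11.01 ± 0.09, and Rasa1, the GTPase-activating protein that binds the beta receptor, at 10.75 ± 0.05. Src, which names its kinase family, was the undetected member, at 6.70 on each array, whereas its relatives Fyn, at 10.47 ± 0.14, and Yes1, at 9.18 ± 0.25, were detected. Yes1 was named after its value was seen, as was Fyn.

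Negative regulators were detected in 7 of 7 cases. The ubiquitin ligase genes Cbl and Cblb, whose products mark activated receptors for degradation, were at 8.96 ± 0.004 and 10.40 ± 0.12 log2 (n = 3). The tyrosine phosphatase genes Ptpn12, Ptprj, Ptpn1 and Ptpn2 were at 10.91 ± 0.08, 10.13 ± 0.18, 8.51 ± 0.13 and 7.96 ± 0.02. Ptprj had another probe set, lower but also above background, at 9.42, 9.36 and 9.31 on replicates 1, 2 and 3. A second probe set of Ptpn2 lay at 6.69, 6.69 and 6.72, below background, so its probe sets disagreed. Acp1, at 10.56, had 5 probe sets whose signals on replicate 3 ran from 8.48 to 10.56, and its level is uncertain.

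Genes that respond to PDGF and to many other growth factors were detected in 5 of 8 cases (62.5%), near the 58.9% of all genes. Their median lay 0.27 log2 above background, and their levels against background ran from -0.77 for Has2 to 1.05 for Srf. Srf was at 7.97 log2, Fosl1 at 7.76 ± 0.003, Egr1 at 7.45 ± 0.02, Junb at 7.20 and Fos at 7.18 ± 0.12 (n = 3). The chemokine gene Ccl2, at 6.88 ± 0.02, Myc, at 6.30, and Has2, the hyaluronan synthase gene, at 6.15 ± 0.07, were not detected. Egr1, Fos and Junb lost their calls when background was raised to the receptors' 99th percentile, and Fos and Junb also with a fixed signal of 150. Tissue digestion can also move such genes, and with 1 group its part was not tested.

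The closest relatives of the PDGF receptors, the other class III receptor kinases, lay at or near background. Kit, the stem cell factor receptor, was not detected, at 6.86 log2 on each array, nor was Flt3, at 6.41 ± 0.006. Csf1r, the macrophage growth factor receptor, was detected at 7.05, 7.15 and 7.05, which is 0.16 above background, and lost its call with the 99th percentile of receptors or a fixed signal of 150 as background. Their ligands were detected in 4 of 4 cases, with Csf1 at 9.24, Kitl at 8.90 ± 0.01, Il34 at 8.08 and Flt3l at 7.92.

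The members' calls were then repeated under other settings. All 6 genes remained detected under each of the 12 alternatives, of which 1, the call without the model, was chosen after seeing the data. Not every alternative put these calls to a test. The rules for several probe sets left the members' values unchanged, and the median of receptors lowered background. Pdgfa, nearest to its threshold, stood between 0.84 above background, with the 99th percentile of receptors, and 3.03, with their median. Pdgfrb stood between 2.68 and 4.87 under the same settings.

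**Figure D4:**
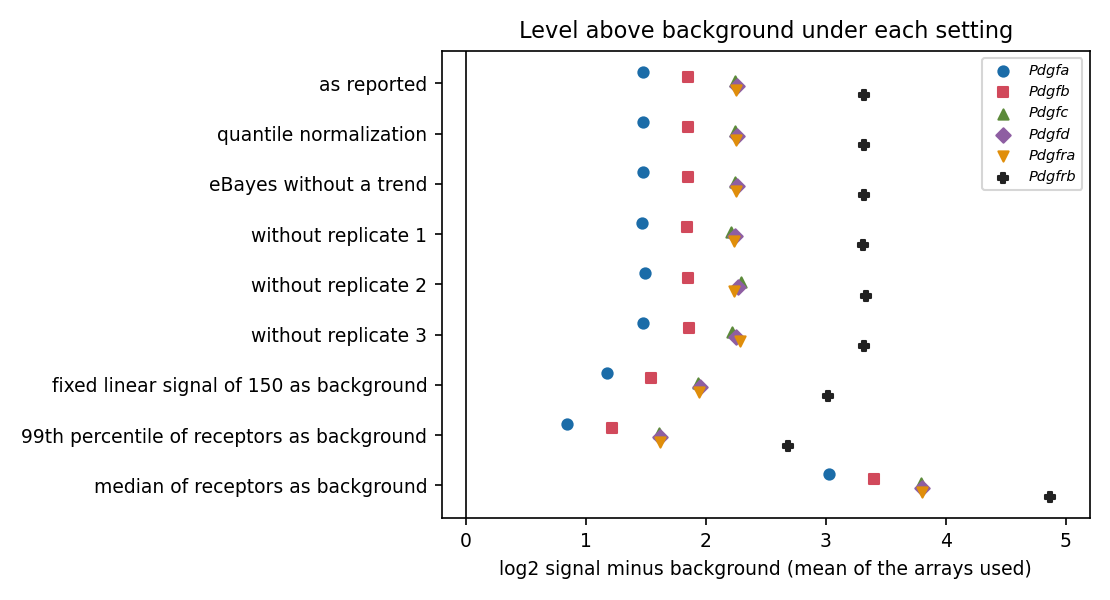
log2 signal minus background (horizontal axis) of each of the 6 PDGF genes as reported and under 8 of the settings tried (rows); the vertical line is background at 0. Every gene stays above 0 in each row, the lowest value being the 0.84 of Pdgfa with the 99th percentile of receptors.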

How the data were processed

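Total RNA of 3 renal corpuscle pools was amplified and hybridised to Affymetrix mouse gene arrays. The authors deposited 1 table of log2 signals for 35557 probe sets; their processing notes credit Affymetrix Expression Console, giving no version, and the summary method and settings are not given in the sources used here. Values were used as deposited, with array medians of 7.11, 7.11 and 7.09. The platform annotation gives 1 symbol for 21789 probe sets, several for 1621 and none here for 12147. A gene took its 1-symbol probe set of highest mean signal. Detection was tested over all 19938 genes with limma 3.58.1 in R 4.3.3 (lmFit with an intercept, eBayes with a trend), on log2 signal minus the background level. The test was run on simulated data, and the simulation, not the test, was revised after earlier versions recovered too few of the planted genes. In the final version most were recovered with an even spread between arrays, and fewer when the real, tied and uneven deviations were used. Only the run with an even spread was held to a minimum recovery. Genes close to background can therefore be missed. All genes without a planted signal were simulated below background and none at it. That no such gene was called does not measure false calls at the background level. Linear signals are 2 to the power of the mean. The number of arrays limits the precision. The labels do not say whether pools came from separate litters, so the spread may be technical.

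The members and lists were chosen with earlier results of these data known. Named were all members, every gene of lists of up to 8, of the longer list the 3 detected genes of highest signal and up to 4 undetected, and of marker lists the 2 highest and up to 2 undetected; Col1a1, Col3a1, Dcn, Fyn and Yes1 were added after their values were seen. Marker lists gave podocyte, endothelial, mesangial and pericyte, parietal epithelial, smooth muscle, fibroblast, platelet, macrophage, tubule and neuronal counts. Alternatives were other backgrounds, quantile normalization, no trend, other probe set rules, a filter on dim genes, each replicate left out and, chosen after seeing the data, a call by position above background on every array.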

Additional observations from a re-analysis of the deposited data

How the results depend on the processing

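No paired analysis was possible because there is 1 group only. All 6 PDGF genes remained detected under the 12 alternatives run. Of the 66 listed genes outside the family, class III genes included, 57 were detected, with 51 to 66 under the alternatives. Over all genes the detected count was 11734, and 18024 with the median of receptors as background, which sets a lower level. It was 8312 with their 99th percentile and 10001 with a fixed signal of 150. Without 1 replicate it ran from 11393 to 11855. With background at the 99th percentile of receptors, levels were below it for Grb7 (-0.44 log2), Fos (-0.38), Junb (-0.36), Egr1 (-0.11) and Csf1r (-0.47), and Stat5b, at 0.024 above it, lost its call. With a fixed linear signal of 150 they were below it for Grb7 (-0.10), Fos (-0.049), Junb (-0.026) and Csf1r (-0.14). Quantile normalization gave SDs of 0.017, 0.025 and 0.012 log2 for Pdgfa, Pdgfd and Pdgfrb, in place of 0, because it shifts equal values unequally. Each PDGF gene has 1 probe set, so the rules for several probe sets left its values as they were. Arrays hold no counts, and levels close to background, such as those of Csf1r and Fos, are limited by where background is set.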

Other observations

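Pdgfrl, a receptor-like gene outside the 6 members, held 6.18 log2 on every array and was not detected. It was looked up after the values of the family were seen.

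In the reference annotation Pdgfra lies beside Kit, and Pdgfrb beside Csf1r, which are the class III receptor kinase genes described above. Gsx2, on the other side of Pdgfra, was at 5.89 log2 on every array and was not detected. Pdgfd lies between Casp12, a protease gene detected at 8.66, 8.67 and 8.57 log2 on replicates 1, 2 and 3, and Ddi1, which held 6.22 and was not. Beside Pdgfb lies Cbx7, which encodes a chromatin protein of the Polycomb group, at 7.41, 7.67 and 7.61 log2. Beside Pdgfc lies Ctso, a cathepsin gene, at 9.80, 9.92 and 9.79 log2, highest on replicate 2, where Pdgfc was lowest.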
